A study of Mus musculus with 9 samples.

Results

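Ahr, the gene of the aryl hydrocarbon receptor, lies on mouse chromosome 12 (minus strand; coordinates here are on GRCm38). The genes described here are its 102 neighbours on that chromosome, out of 48795 genes in the deposited table. A gene was a member if its start lay within 20 Mb of the Ahr start and its mean normalised value over the 9 libraries was 10 or more. Ahr itself, Agr2, Id2, Rrm2 and the genes of the Slc families were left out by the same rule. Of the 271 genes of the table that began in this window, 164 had a mean under 10, among them 112 at 0 in every library, and 5 were left out by name. Of the members, 62 lay at lower and 40 at higher coordinates than Ahr, and 92 were annotated as protein-coding, 5 as lincRNA, 4 as pseudogenes and 1 as a processed transcript. The members were thus chosen by position and by the mean level over all 9 libraries, and the same level limit applied to every gene tested. In 5 members the mean was 10 or more in only 1 genotype: Prkar2b, Atp6v1c2 and Dcdc2c were under 10 in WT, and 1700030C10Rik and Pxdn under 10 in AHR KO, so these could enter only by differing. At the limit of level, Pxdn (mean 10.17) was inside and Gm4419 (9.80) outside, and at the limit of distance Nfkbia (start 19.99 Mb from Ahr) was inside and Ralgapa1 (20.11 Mb) outside.

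The libraries were RNA-seq profiles of mouse colon organoids, which are cultures of epithelium grown from colonic crypts, kept in WENR, a medium with Wnt3a. Organoids labelled AHR KO came from mice with a floxed Ahr allele that Villin-Cre deletes in the intestinal epithelium and WT organoids came from their wildtype littermates. Per the methods of the study, all mice were C57BL/6. Both were given for 4 h either the solvent DMSO or 5 nM FICZ (6-formylindolo[3,2-b]carbazole), a tryptophan derivative that binds AHR. There were 2 libraries of WT DMSO (replicates 2 and 3), 3 of WT FICZ (replicates 1, 2 and 3), 2 of AHR KO DMSO (replicates 1 and 3) and 2 of AHR KO FICZ (replicates 1 and 3). The genotype comparisons under DMSO and under FICZ shared no library, and whether libraries of 1 replicate number share an animal or culture is not given in the sources used here.

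The DNA core recognised by AHR together with its partner protein ARNT is GCGTG, and dietary indoles and other ligands switch the receptor on. Genes on 1 stretch of chromosome are usually inherited together with an allele that is bred into a line. A difference of such a gene between AHR KO and WT organoids through loss of the receptor, and one through sequence carried along with the targeted allele, cannot be told apart in this design. The neighbours of Ahr have many roles, among them the ribosome, entry of proteins into the endoplasmic reticulum, membrane traffic, signalling and lipid metabolism.

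Normalised values summed to between 23177058 and 25033827 per library. Ahr was higher in the libraries labelled AHR KO, at 1403.8 and 1346.4 under DMSO against 786.5 and 858.0 in WT (log2 difference 0.74 ± 0.07, SE; limma adjusted p = 1.94e-04). Values per gene do not show whether an exon is missing, so below the names AHR KO and WT follow the labels alone. All 7 epithelial and all 6 colon markers examined had means of 10 or more, whereas the summed values of 6 fibroblast, 3 endothelial and 6 immune markers were at most 5.27 in any library. The colon markers summed to 34115.5 to 40064.8 in WT libraries and to 30553.0 to 34055.2 in AHR KO libraries. The 4 neuronal and glial markers summed to 66.1 to 97.3 in WT libraries and 19.8 to 47.2 in AHR KO libraries, most of it Elavl4, with S100b at 0 in every library. The part of these marker differences in the results was not tested. In such bulk samples, fewer cells of a type and less RNA per cell cannot be told apart.

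The first question was which neighbours of Ahr differed between AHR KO and WT organoids. With DMSO alone, 23 of the 102 members passed the test (adjusted p under 0.05 over all 12741 genes tested), 11 higher and 12 lower in AHR KO. This was 22.5% of the members, beside 9.05% of all genes tested (4.21% higher and 4.83% lower). Under FICZ, 40 members passed (39.2%), 22 higher and 18 lower, beside 20% of all genes (9.48% higher and 10.5% lower). Of the 97 members at 10 or more in both genotypes, 20 passed under DMSO and 37 under FICZ. In both treatments 21 members passed with the same direction (20.6%), 11 higher and 10 lower, beside 7.56% of all genes. Of the 339 genes tested elsewhere on chromosome 12, 36 (10.6%) passed under DMSO and 71 (20.9%) under FICZ. The median difference of the members was near 0 on the log2 scale (-0.03 under DMSO and -0.01 under FICZ, against -0.01 and -0.00 over all genes). The median size of the difference was 0.21 and 0.22, against 0.14 and 0.16 over all genes. In 16 members all 4 AHR KO libraries lay above all 5 WT libraries and in 16 they all lay below, beside 7.76% and 7.82% of all genes (15.6% together). The 4 AHR KO libraries carry only the replicate numbers 1 and 3, and the 5 WT libraries the numbers 1, 2 and 3, so libraries of 1 genotype may not be independent.

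With 2 or 3 libraries a group, leaving out a library ended many calls, among all genes as well as the members. Without 1 library of a pair, the lone library was assumed to vary like the other groups. When each of the 9 libraries was left out in turn, 12 of the 23 calls under DMSO and 17 of the 40 under FICZ held every time. The 12 were Prkar2b, Atp6v1c2, Mboat2, Fam177a, 1700047I17Rik2, Srp54a and Srp54c, all higher in AHR KO, and 1700030C10Rik, Greb1, Rps7, Dtd2 and Heatr5a, all lower. Among these, Fam177a with 1700047I17Rik2 and Srp54a with Srp54c are pairs that share sequence. Rps7 kept neither call once summed with the genes that share its sequence, as given below. Under FICZ the same 12 held, with Lamb1, Adi1, Nol10 and Baz1a (higher) and Ccdc71l (lower). The count under DMSO was 13, 15, 14 and 12 without WT DMSO replicate 2, WT DMSO replicate 3, AHR KO DMSO replicate 1 and AHR KO DMSO replicate 3, when 4.37, 4.56, 3.53 and 3.05% of all genes passed. The count under FICZ was 21 without AHR KO FICZ replicate 3, when 10.3% of all genes passed.

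Prkar2b showed the highest difference (chr12:31958476-32061296, minus strand, starting at -3.54 Mb from the Ahr start, where a minus sign stands for lower coordinates). It encodes a regulatory subunit of cAMP-dependent protein kinase. Its normalised value was 7.46 and 11.7 in WT DMSO and 205.5 and 164.3 in AHR KO DMSO. Under FICZ it was 6.31, 3.94 and 2.01 in WT and 152.1 and 173.3 in AHR KO. All 4 AHR KO libraries thus lay above all 5 WT libraries, with a 19.3-fold ratio of means under DMSO. The log2 difference, taken on value + 1 here and below, was 4.16 ± 0.41 (SE) under DMSO (adjusted p = 3.11e-04) and 5.10 ± 0.38 under FICZ (adjusted p = 1.61e-05).

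Atp6v1c2, a subunit of the proton pump that acidifies endosomes and lysosomes, lay far off at the other end of that side (chr12:17284721-17329359, minus strand, at -18.21 Mb). Its values were 11.3 and 8.37 in WT DMSO and 165.1 and 199.2 in AHR KO DMSO, an 18.5-fold ratio of means. Under FICZ they were 3.92, 5.56 and 10.9 in WT and 151.4 and 186.3 in AHR KO. Atp6v1c2 was therefore low in every WT library and more than 10 times higher in every AHR KO library, with log2 differences of 4.09 ± 0.40 (adjusted p = 2.71e-04) and 4.54 ± 0.36 (adjusted p = 2.34e-05). Its last bases overlap the end of Pdia6 on the other strand, a disulfide isomerase of the endoplasmic reticulum, which had log2 differences of 0.04 and 0.03 (adjusted p = 0.724 and 0.669).

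Mboat2, an acyltransferase that rebuilds membrane phospholipids, lay between them (chr12:24830879-24964397, plus strand, at -10.67 Mb). It stood at 45.2 and 30.5 in WT DMSO against 509.9 and 461.3 in AHR KO DMSO, and at 23.3, 26.4 and 21.7 in WT FICZ against 572.0 and 395.1 in AHR KO FICZ. The groups did not overlap, and the log2 differences were 3.67 ± 0.23 (adjusted p = 4.49e-05) and 4.27 ± 0.21 (adjusted p = 1.44e-06). Lamb1, the beta-1 chain of laminin in basement membranes, was another member with a large rise (chr12:31265234-31329644, plus strand, at -4.23 Mb). Its values were 6.95 and 18.2 in WT DMSO, 61.9 and 132.4 in AHR KO DMSO, 14.3, 14.8 and 9.54 in WT FICZ, and 63.6 and 92.7 in AHR KO FICZ. The log2 differences of Lamb1 were 2.89 ± 0.49 (adjusted p = 0.0051) and 2.51 ± 0.44 (adjusted p = 0.0031). The call of Lamb1 under DMSO was lost without AHR KO DMSO replicate 3, its highest library (adjusted p = 0.0666).

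On the lower side, Greb1, best known as an oestrogen-regulated gene, fell (chr12:16670615-16800886, minus strand, at -18.83 Mb). It was at 1069.7 and 944.0 in WT DMSO, 361.0 and 253.9 in AHR KO DMSO, 828.3, 895.5 and 1257.9 in WT FICZ, and 425.2 and 254.2 in AHR KO FICZ. Every AHR KO library of Greb1 lay below every WT library, with WT means 3.28 and 2.93 times those of AHR KO (adjusted p = 0.00265 and 0.00115). The noncoding transcript 1700030C10Rik (ENSMUSG00000099759, chr12:20804381-20815779, minus strand) was at 73.0 and 50.8 in WT DMSO, 7.998 and 2.92 in AHR KO DMSO, 141.2, 85.2 and 67.8 in WT FICZ, and 6.01 and 7.52 in AHR KO FICZ. Its log2 differences were -3.38 ± 0.46 (adjusted p = 0.00177) and -3.61 ± 0.42 (adjusted p = 2.35e-04). A second gene of the same symbol just under the level limit (mean 9.56) was near 0 in 8 libraries and at 79.8 in WT FICZ replicate 1. The members 1700030C10Rik, Gm10479 and Etv1 have means under 50 and were chosen for naming after their values were seen. The lincRNA Gm10479 passed under DMSO alone, with a log2 difference of -1.77 (adjusted p = 0.0172). Its call was lost without WT DMSO replicate 2, AHR KO DMSO replicate 1 or AHR KO DMSO replicate 3 (adjusted p up to 0.145).

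**Figure D1:**
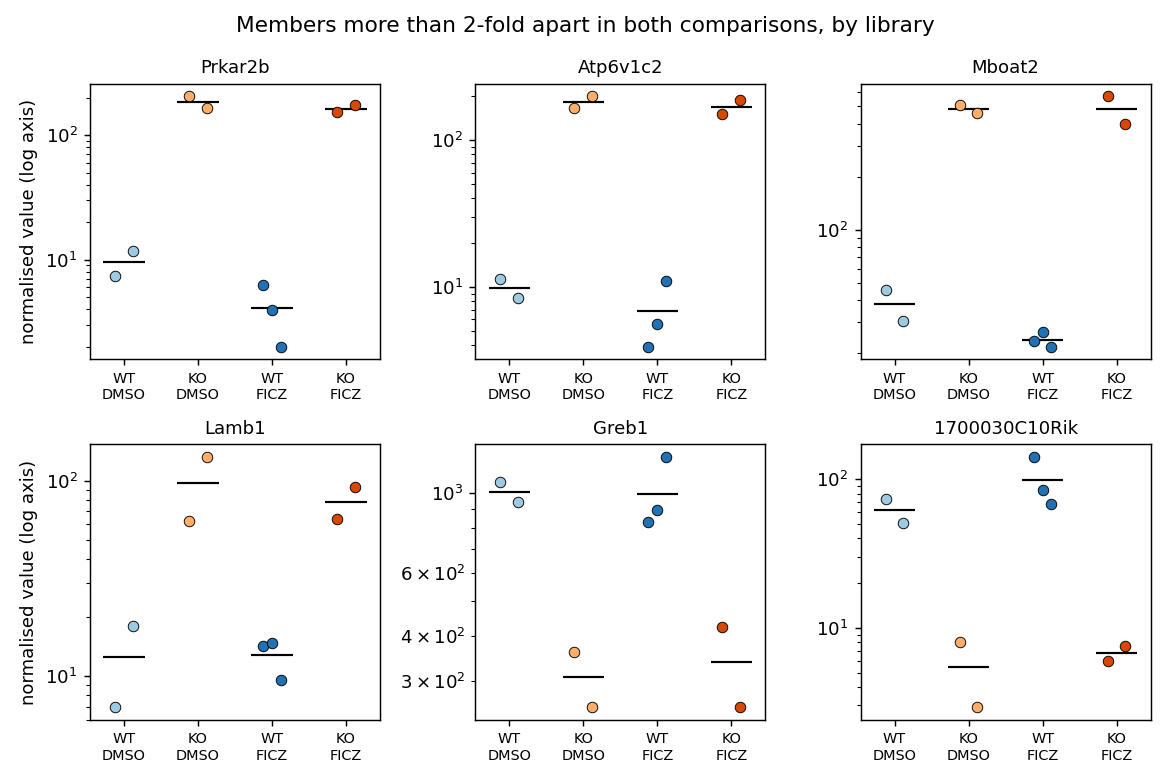
Normalised value (log axis) of 6 members in each of the 9 libraries, by group. Points are libraries and bars are group means of 2 or 3 libraries. In each panel the 4 AHR KO libraries lie all above (Prkar2b, Atp6v1c2, Mboat2, Lamb1) or all below (Greb1, 1700030C10Rik) the 5 WT libraries.

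Promoters of 5 of these members are printed to show where the AHR core stands in them. Each is the 300-base window from 250 bases before to 50 bases after a RefSeq start on GRCm38.p6, 5′ to 3′ on the strand of the gene, with each match to GCGTG, or to CACGC on the opposite strand, in capitals. The windows lie at chr12:32061228-32061527 (Prkar2b, minus strand), chr12:17324681-17324980 (Atp6v1c2, minus strand), chr12:24831349-24831648 (Mboat2, plus strand), chr12:31265043-31265342 (Lamb1, plus strand) and chr12:16800837-16801136 (Greb1, minus strand).
Prkar2b: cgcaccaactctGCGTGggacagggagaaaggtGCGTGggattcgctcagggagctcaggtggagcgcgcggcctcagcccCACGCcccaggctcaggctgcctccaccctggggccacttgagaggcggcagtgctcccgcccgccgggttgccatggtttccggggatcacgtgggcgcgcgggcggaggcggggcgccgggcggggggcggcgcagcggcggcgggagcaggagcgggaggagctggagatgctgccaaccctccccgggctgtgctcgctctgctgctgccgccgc
Atp6v1c2: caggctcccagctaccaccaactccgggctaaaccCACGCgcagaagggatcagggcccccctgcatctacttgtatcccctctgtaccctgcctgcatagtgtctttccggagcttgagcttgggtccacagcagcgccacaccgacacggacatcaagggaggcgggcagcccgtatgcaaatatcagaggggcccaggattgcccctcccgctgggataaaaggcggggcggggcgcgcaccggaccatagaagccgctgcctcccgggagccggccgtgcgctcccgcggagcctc
Mboat2: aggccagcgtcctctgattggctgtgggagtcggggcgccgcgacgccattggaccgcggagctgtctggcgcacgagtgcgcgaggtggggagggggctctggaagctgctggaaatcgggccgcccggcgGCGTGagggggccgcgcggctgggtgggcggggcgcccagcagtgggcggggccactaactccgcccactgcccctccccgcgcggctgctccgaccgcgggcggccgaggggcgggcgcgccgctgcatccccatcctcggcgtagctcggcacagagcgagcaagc
Lamb1: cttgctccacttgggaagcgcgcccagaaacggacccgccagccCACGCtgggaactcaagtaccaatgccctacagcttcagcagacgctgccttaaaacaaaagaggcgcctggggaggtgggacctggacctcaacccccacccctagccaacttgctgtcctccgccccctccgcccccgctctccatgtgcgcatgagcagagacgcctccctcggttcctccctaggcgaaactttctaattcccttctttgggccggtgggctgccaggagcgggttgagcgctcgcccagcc
Greb1: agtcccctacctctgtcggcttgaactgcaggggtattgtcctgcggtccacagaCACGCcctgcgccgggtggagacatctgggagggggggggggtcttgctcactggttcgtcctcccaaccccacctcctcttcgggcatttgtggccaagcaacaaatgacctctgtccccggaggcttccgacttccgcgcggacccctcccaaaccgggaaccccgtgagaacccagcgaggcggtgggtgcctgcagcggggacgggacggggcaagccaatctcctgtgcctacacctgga
Prkar2b had 3 matches and the other 4 windows 1 each, while the window of 1700030C10Rik, which is not printed, had 0. The RefSeq starts of Atp6v1c2 and Mboat2 lie 4629 and 720 bases from the GENCODE gene starts, and windows at those were not searched. Windows were matched by symbol and found for 85 of the 102 members (98 windows), and 55.1% of these held a match, against 50.9% of the windows of all genes tested. Some windows lie far from the GENCODE start of the member, among them those of Gm10479 (1122708 bases), Pnpla8 (47784), Ifrd1 (25315) and Arhgap5 (12105). The shares here include them. Among members called in either genotype comparison 54.1% of 37 windows held one, and among the others 55.7% of 61. A match is a description of these letters and not of binding.

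The second question was how the differences lay along the chromosome. None of the 6 members under 2 Mb away passed under DMSO, and 2 passed under FICZ (33.3%, beside 20% of all genes). Snx13, a sorting nexin at -0.45 Mb, had log2 differences of -0.05 and -0.30 (adjusted p = 0.857 and 0.0783). On the other side, the tetraspanin Tspan13, 0.52 Mb after Ahr, had -0.04 and -0.10 (adjusted p = 0.870 and 0.531). Bzw2, a regulator of translation initiation 0.59 Mb after Ahr, was at 2264.7, 2422.3 and 2294.1 in WT FICZ and higher, at 2748.9 and 2681.3, in AHR KO FICZ (log2 difference 0.22 ± 0.05, adjusted p = 0.0100). Ankmy2 (0.66 Mb after Ahr) was lower under FICZ, with a log2 difference of -0.31 ± 0.08 (adjusted p = 0.0200). The call of Bzw2 was lost without AHR KO FICZ replicate 1 (adjusted p = 0.0589), and that of Ankmy2 without WT FICZ replicate 1 or AHR KO FICZ replicate 3 (adjusted p up to 0.160). Agmo, the alkylglycerol monooxygenase, was at 13.2 and 10.9 in WT DMSO, 23.98 and 26.4 in AHR KO DMSO, 8.48, 10.9 and 9.65 in WT FICZ, and 16.5 and 13.5 in AHR KO FICZ. All 4 AHR KO libraries of Agmo were above all 5 WT libraries, but its log2 differences of 1.01 and 0.58 were not called (adjusted p = 0.12 and 0.251). Ispd passed in neither comparison.

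From 2 to 5 Mb, 5 of 25 members passed under DMSO and 9 under FICZ. From 5 to 10 Mb it was 2 and 3 of 13, and from 10 to 20 Mb 16 and 26 of 58. The share called was thus 16.1% and 35.5% within 5 Mb and 25.4% and 40.8% beyond it, beside 9.05% and 20% of all genes, and no test of the difference by distance was made. Within 5 Mb the count under DMSO was 2 without WT DMSO replicate 2, WT DMSO replicate 3 or AHR KO DMSO replicate 1, 1 without AHR KO DMSO replicate 3 and 8 without WT FICZ replicate 1. At 10 to 20 Mb it was 10 without WT DMSO replicate 2 or AHR KO DMSO replicate 3. Under FICZ, leaving out AHR KO FICZ replicate 3 gave 4 within 5 Mb and 15 at 10 to 20 Mb. The 2 called members past 2-fold within 5 Mb under DMSO were Prkar2b and Lamb1, and 5 called members past 2-fold lay beyond 10 Mb. Nearest to Ahr on the lower side beyond Snx13, the members Twistnb, Atxn7l1, Sypl, Gdap10 and Nampt (at -2.07 to -2.68 Mb) passed in neither genotype comparison, and Gdap10 lies inside Nampt on the same strand, so their reads may not be told apart. Of the members within 5 Mb, Ccdc71l was lower, at 1236.5 and 1156.1 in WT DMSO and 854.7 and 788.4 in AHR KO DMSO (log2 difference -0.54 ± 0.12, adjusted p = 0.0210). The call of Ccdc71l under DMSO was lost without any 1 of the 4 DMSO libraries (adjusted p up to 0.155), while under FICZ it held (log2 difference -0.59 ± 0.11, adjusted p = 0.00431).

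**Figure D2:**
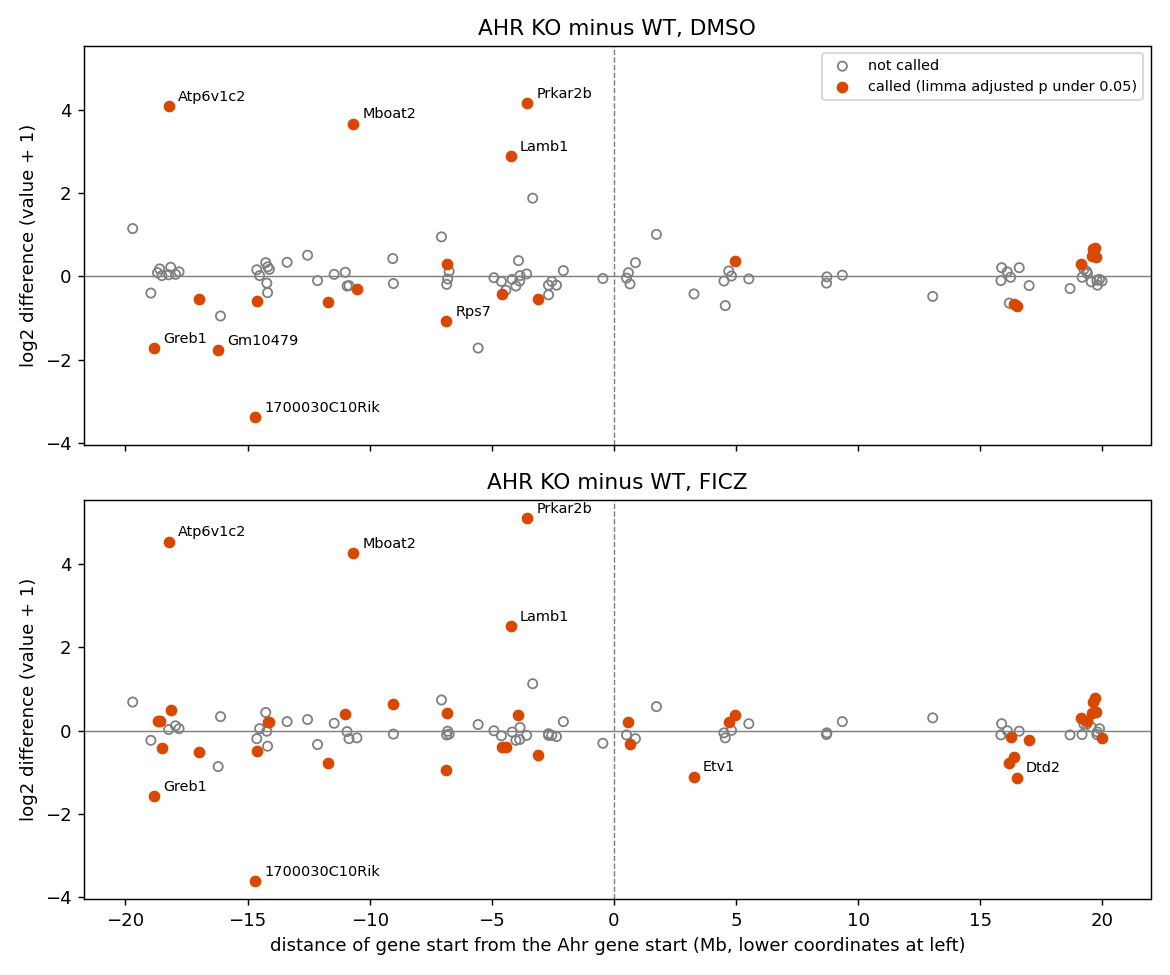
Log2 difference, AHR KO minus WT, of the 102 members (vertical axes, value + 1) against the distance of the gene start from the Ahr start in Mb, under DMSO (upper panel) and FICZ (lower panel). Filled points are called members and named points are called and more than 2-fold apart. Those 8 named members in each panel lie at -18.8 Mb (Greb1) to -3.5 Mb (Prkar2b) under DMSO, and Etv1 and Dtd2 join on the side after Ahr under FICZ.

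The edges of the window did not bound the pattern evenly. In intervals of 10 Mb, 9 of 33 members passed under DMSO at 10 to 20 Mb before Ahr and 6 of 29 within 10 Mb before it, then 1 of 15 within 10 Mb after it and 7 of 25 at 10 to 20 Mb after it. Outside the window, 4 of 19 genes passed under DMSO and 5 under FICZ at 20 to 30 Mb before Ahr, and under DMSO none of 18 at 30 to 40 Mb before it. On the other side none of 22 passed at 20 to 30 Mb after Ahr under DMSO and 1 under FICZ, while 10 and 15 of 46 passed at 30 to 40 Mb. The intervals were chosen after the data were seen.

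**Figure D3:**
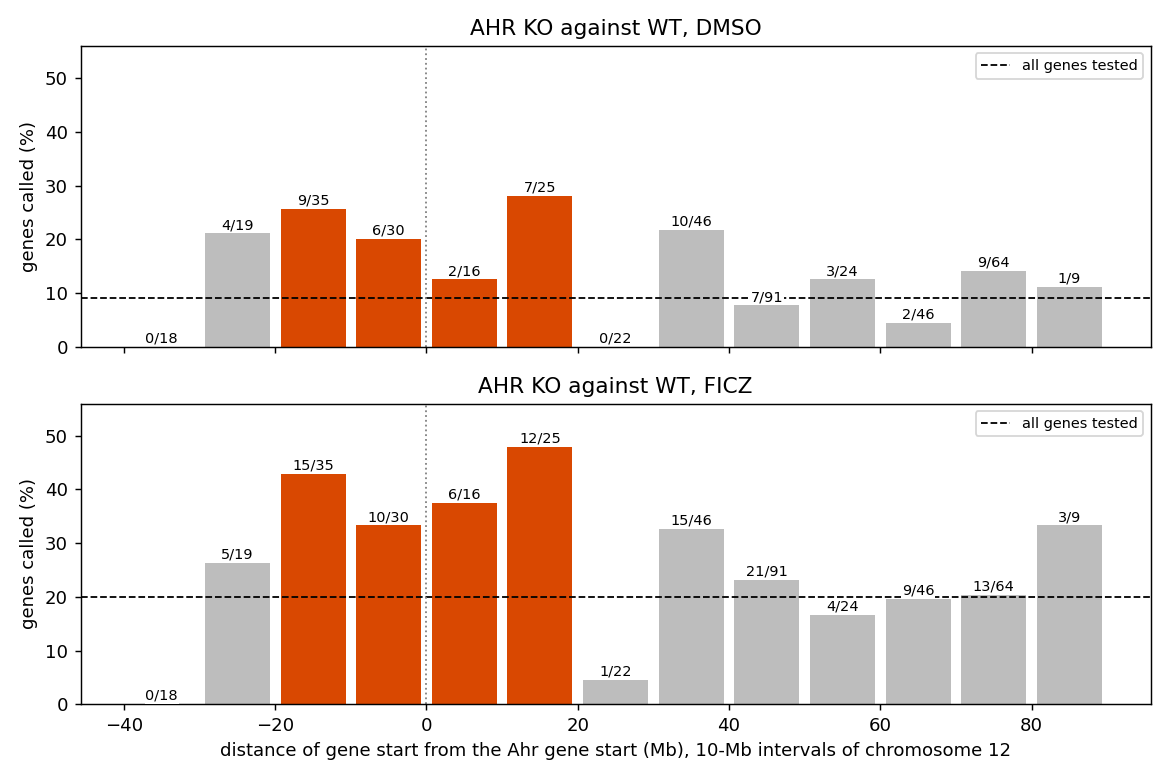
Share of the genes tested on chromosome 12 that were called between AHR KO and WT (vertical axes, percent) in 10-Mb intervals from the Ahr start, under DMSO (upper panel) and FICZ (lower panel), with the numbers called and tested above each bar. Orange bars are the window of the members and the dashed line is the share over all genes tested (9.05% and 20%). The intervals of the window stand at 12.5 to 28% under DMSO and 33.3 to 48% under FICZ, with genes other than Ahr that the rule left out by name included. The next interval stands at 21.1% and 26.3% before the window and at 0 of 22 and 1 of 22 after it, and the one at 30 to 40 Mb after Ahr at 21.7% and 32.6%.

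At the far end after Ahr, from 19.15 Mb to the limit of the window, 5 of 14 members were called under DMSO (35.7%) and 7 under FICZ (50%), beside 9.05% and 20% of all genes, in a stretch chosen after the calls were seen. The 5 were Sptssa and 2 pairs of genes that share sequence, Fam177a with 1700047I17Rik2 and Srp54a with Srp54c, all higher, and under FICZ Baz1a (higher) and Nfkbia (lower, log2 difference -0.17, adjusted p = 0.0223) were added. The call of Nfkbia was lost without WT FICZ replicate 1 or either AHR KO FICZ library (adjusted p up to 0.116). Eapp, Snx6, Cfl2, 2700097O09Rik, Ppp2r3c, 1110008L16Rik and Psma6 passed in neither treatment (adjusted p of 0.111 or more). Fam177a (chr12:55124469-55142104, plus strand) was at 1926.8 and 1827.3 in WT DMSO, 3049.0 and 2916.4 in AHR KO DMSO, 1715.9, 1687.8 and 1587.0 in WT FICZ, and 2659.5 and 2705.8 in AHR KO FICZ. All AHR KO libraries of Fam177a were higher, by log2 differences of 0.67 ± 0.06 (adjusted p = 1.91e-04) and 0.69 ± 0.06 (adjusted p = 2.41e-05). Its near-identical copy 1700047I17Rik2 shares all of its 50-base stretches with Fam177a and rose as well, by 0.68 and 0.78. Srp54a and Srp54c, copies of the subunit of the signal recognition particle that binds signal peptides, rose by 0.48 and 0.42 and by 0.47 and 0.45. Srp54a went from 2399.5 and 2331.8 in WT DMSO to 3392.0 and 3217.6 in AHR KO DMSO (adjusted p = 0.00184), and Srp54c from 3801.9 and 3756.8 to 5316.3 and 5167.7 (adjusted p = 0.00104). Srp54c shares 87.0% of its 50-base stretches with Srp54a, and Srp54b, a further copy, was not analysed here. Since reads of copies can be split between them in counting, each pair was also summed. Fam177a with its copy was higher by 0.67 (adjusted p = 2.29e-04) under DMSO and by 0.72 (adjusted p = 2.27e-05) under FICZ, and Srp54a with Srp54c by 0.48 (adjusted p = 6.85e-04) and 0.44 (adjusted p = 1.88e-04).

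Rps7, a protein of the small ribosomal subunit, gave another picture once its copies were counted with it. Rps7 (chr12:28630854-28635953, minus strand, at -6.87 Mb) was at 12832.4 and 12101.0 in WT DMSO and 5978.4 and 5838.6 in AHR KO DMSO. Under FICZ it was at 10752.0, 12533.8 and 11025.1 in WT and 6017.0 and 5865.5 in AHR KO. The libraries did not overlap, and the log2 differences were -1.08 ± 0.07 (adjusted p = 5.17e-05) and -0.94 ± 0.07 (adjusted p = 1.17e-05). The other 78 genes of cytosolic ribosomal proteins had a median log2 difference of -0.06 under DMSO and 0.02 under FICZ, and none was lower than -0.30 (Rps26). Gm6472, a processed pseudogene of Rps7 on the X chromosome (chrX:152909505-152910155) that holds 51.8% of the 50-base stretches of Rps7, moved the other way. It was at 3236.0 and 3842.1 in WT DMSO and 9485.4 and 9283.5 in AHR KO DMSO, and at 3167.9, 3083.0 and 2922.3 in WT FICZ and 8979.2 and 8672.0 in AHR KO FICZ. Its log2 differences were 1.41 (adjusted p = 2.38e-05) and 1.53 (adjusted p = 8.95e-07). The sum of Rps7 and the 5 genes of the table that share its sequence was 16137.0 and 15998.3 in WT DMSO against 15504.7 and 15161.7 in AHR KO DMSO, and overlapped between genotypes under FICZ. Fitted as 1 gene, this sum differed by -0.07 ± 0.06 (adjusted p = 0.571) under DMSO and by 0.03 ± 0.06 (adjusted p = 0.776) under FICZ, so that Rps7 kept neither call.

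**Figure D4:**
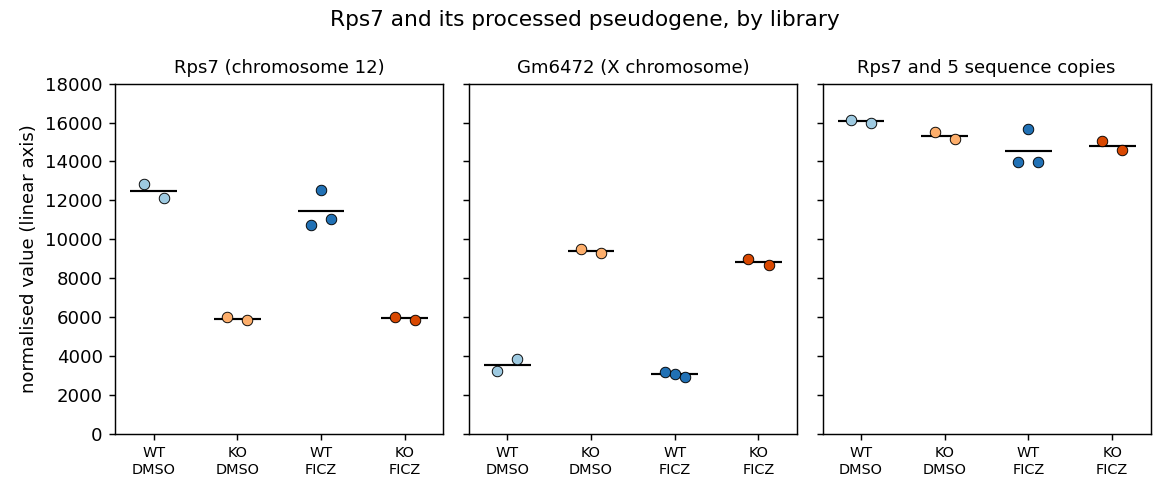
Normalised value (linear axis from 0) of Rps7, of its processed pseudogene Gm6472 and of Rps7 summed with the 5 genes sharing its sequence, in each of the 9 libraries. Points are libraries and bars are group means. Rps7 is at 5838.6 to 6017.0 in AHR KO and at 10752.0 to 12832.4 in WT, Gm6472 shows the opposite order, and the sums lie between 13955.0 and 16137.0 in all libraries.

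In all, 22 members shared 10% or more of their 50-base stretches with other genes. Without them, 14 of the other 80 members passed under DMSO, beside 9.05% of all genes. Zfp125, annotated as a pseudogene, and 3110053B16Rik overlap on the same strand, so the fall of Zfp125 (log2 difference -0.60 and -0.48, adjusted p = 0.0197 and 0.0183) is uncertain. Its call was lost without WT DMSO replicate 2, AHR KO DMSO replicate 1 or AHR KO DMSO replicate 3 under DMSO, and without AHR KO FICZ replicate 1 or 3 under FICZ (adjusted p up to 0.153 and 0.119).

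By function, the members that differed came from most groups. The counts that follow stand beside 9.05% of all genes called under DMSO and 20% under FICZ, and no group was tested against other genes. In the lists drawn up for the window, 24 members had no listed role, and 10 of these passed in each treatment (41.7%). The lists are not complete, and some of the 24, such as Dtd2 and Adi1, have known roles, so the shares of all groups depend on how members were placed. Among the 24 that passed were Heatr5a and Dtd2, which are neighbours 16.38 and 16.49 Mb after Ahr. Heatr5a was at 1665.9 and 1609.8 in WT DMSO, 1022.7 and 1064.3 in AHR KO DMSO, 1762.1, 1826.5 and 1785.3 in WT FICZ, and 1204.9 and 1091.1 in AHR KO FICZ. It was lower in every AHR KO library (log2 difference -0.65 ± 0.07, adjusted p = 3.53e-04, and -0.64 ± 0.06, adjusted p = 5.94e-05). Dtd2, a deacylase that clears mischarged tRNA, was at 312.1 and 364.7 in WT DMSO, 199.5 and 209.0 in AHR KO DMSO, 332.0, 324.5 and 346.0 in WT FICZ, and 145.4 and 158.7 in AHR KO FICZ (log2 difference -0.72 ± 0.12, adjusted p = 0.00426, and -1.13 ± 0.11, adjusted p = 6.22e-05). Adi1, an enzyme of methionine salvage, was higher in AHR KO by 0.31 (adjusted p = 0.0134) and 0.43 (adjusted p = 6.29e-04). The call of Adi1 under DMSO was lost without any 1 of the 4 DMSO libraries (adjusted p up to 0.0994). Among the lower members without a listed role, 5730507C01Rik had log2 differences of -0.53 and -0.51 (adjusted p = 0.0197 and 0.00715), and Gm10330 of -0.62 and -0.78 (adjusted p = 0.0483 and 0.00575). Under FICZ both were lost without AHR KO FICZ replicate 3 (adjusted p = 0.0674 and 0.063), and under DMSO both without any 1 of the 4 DMSO libraries, Gm10330 also without any WT FICZ library (adjusted p up to 0.138 and 0.222).

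Of 15 kinases, small GTPase regulators and adaptors, 3 passed under DMSO (20%) and 7 under FICZ (46.7%), with a median log2 difference of 0.11 and 0.05. Besides Prkar2b, Dock4, an exchange factor for small GTPases, was at 414.8 and 398.2 in WT DMSO and 546.3 and 504.8 in AHR KO DMSO (log2 difference 0.37, adjusted p = 0.0328, and 0.39 under FICZ, adjusted p = 0.00906). Kidins220, a membrane scaffold of neurotrophin receptors, was lower under DMSO, at 1742.4 and 1613.9 in AHR KO and 2088.5 and 2078.8 in WT (log2 difference -0.31, adjusted p = 0.0164). The DMSO calls of Dock4 and Kidins220 were lost without WT DMSO replicate 2, WT DMSO replicate 3 or AHR KO DMSO replicate 3, and that of Dock4 also without AHR KO DMSO replicate 1 (adjusted p up to 0.194 and 0.148). The call of Dock4 under FICZ was lost without AHR KO FICZ replicate 3 (adjusted p = 0.0676). Rock2, Ywhaq and Arhgap5, with the highest mean values of the group, passed under FICZ alone, with log2 differences of 0.23, 0.22 and -0.21 (adjusted p = 0.0076, 0.00856 and 0.0491). These calls were lost without AHR KO FICZ replicate 1 for Rock2 (adjusted p = 0.0507), without AHR KO FICZ replicate 3 for Ywhaq (adjusted p = 0.0743), and without any library but AHR KO FICZ replicate 1 for Arhgap5 (adjusted p up to 0.338).

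Of 14 members of vesicle transport and membrane sorting, 2 passed under DMSO (14.3%) and 4 under FICZ (28.6%), with a median of 0.02 in both. Atp6v1c2 was the only one of these past 2-fold. Sh3yl1, a lipid-binding protein, was lower in both treatments (log2 difference -0.42 and -0.39, adjusted p = 0.0366 and 0.0178). Its call under FICZ was lost without AHR KO FICZ replicate 3 (adjusted p = 0.155), and under DMSO without any 1 of the 4 DMSO libraries or WT FICZ replicate 3 (adjusted p up to 0.252). Ap4s1, the small subunit of the adaptor complex AP-4, was at 145.8, 185.2 and 129.9 in WT FICZ and 90.9 and 86.8 in AHR KO FICZ (log2 difference -0.77, adjusted p = 0.00949), a call lost without AHR KO FICZ replicate 3 (adjusted p = 0.0688). Sypl, Snx6 and Snx13, with the highest mean values of the group, passed in neither treatment.

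Of 12 members listed as transcription factors and chromatin proteins, 2 passed under DMSO (16.7%), both lower (Greb1 and Zfp125), and 6 under FICZ (50%), 3 in each direction. Zfp125, counted in both treatments, is annotated as a pseudogene and its fall is uncertain, as given above. Baz1a, a subunit of chromatin remodelling complexes, was higher under FICZ, at 4167.1 and 4243.6 in AHR KO against 3562.2, 3693.6 and 3532.9 in WT (log2 difference 0.23 ± 0.05, adjusted p = 0.00602). Etv1, a factor of the ETS family, was at 62.2, 52.0 and 40.0 in WT FICZ and 23.9 and 22.3 in AHR KO FICZ (log2 difference -1.10 ± 0.28, adjusted p = 0.0197). The call of Etv1 was lost without WT FICZ replicate 1, AHR KO FICZ replicate 1 or AHR KO FICZ replicate 3 (adjusted p up to 0.106).

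Of 9 members of RNA processing, ribosomes and translation, Rps7 passed under DMSO (11.1%), and Rps7, Nol10, Bzw2 and Taf1b under FICZ (44.4%). Summed with the genes that share its sequence, Rps7 kept neither call (limma adjusted p = 0.571 and 0.776). Nol10, a nucleolar protein, was at 732.9, 698.4 and 703.2 in WT FICZ and 991.4 and 1032.4 in AHR KO FICZ (log2 difference 0.51 ± 0.06, adjusted p = 2.38e-04), and its difference under DMSO was 0.22 (adjusted p = 0.0634). Taf1b, part of the factor that places RNA polymerase I on ribosomal DNA, was higher by 0.40 under FICZ (adjusted p = 0.0234). The call of Taf1b was lost without WT FICZ replicate 1 or 3 or AHR KO FICZ replicate 1 or 3 (adjusted p up to 0.136). Cpsf3, the nuclease that cuts the 3′ ends of pre-mRNA, differed by -0.16 and -0.01 (adjusted p = 0.104 and 0.898).

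Among 11 members of lipid, nucleotide, polyamine and mitochondrial metabolism, Mboat2 and Sptssa, a small subunit of serine palmitoyltransferase, passed in both treatments (18.2%), both higher. Sptssa was at 1953.6 and 1858.7 in WT DMSO and 2364.8 and 2343.7 in AHR KO DMSO (log2 difference 0.30, adjusted p = 0.0302, and 0.31 under FICZ, adjusted p = 0.00983). Its calls were lost without any 1 of the 4 DMSO libraries, and under FICZ without AHR KO FICZ replicate 1 (adjusted p up to 0.166 and 0.0717). The enzymes with the highest mean values of this group, Egln3, a prolyl hydroxylase of the hypoxia response, Odc1, which starts polyamine synthesis, and Nampt, which supplies NAD, did not pass (log2 differences of -0.29, 0.05 and -0.21 under DMSO and -0.10, 0.12 and -0.07 under FICZ).

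The other groups were small, with 2 to 6 members, so the share called in each rests on few genes. These shares were 0 to 33.3% under DMSO and 33.3 to 66.7% under FICZ. Of 6 members of protein folding and entry into the secretory pathway, 2 passed in both treatments, Srp54a and Srp54c. Of 3 secreted factors, proteases and matrix proteins, Lamb1 passed in both and the sheddase Adam17 under FICZ (log2 difference 0.21, adjusted p = 0.0404, lost without any DMSO library, WT FICZ replicate 1 or 3 or AHR KO FICZ replicate 1, with adjusted p up to 0.267). Of 2 interferon-inducible members, Rsad2 was at 148.1, 186.9 and 191.8 in WT FICZ and 258.4 and 288.5 in AHR KO FICZ (log2 difference 0.64, adjusted p = 0.0135), a call lost without AHR KO FICZ replicate 3 (adjusted p = 0.110). Its neighbour Cmpk2, which interferon also induces, differed by -0.17 and -0.08 (adjusted p = 0.436 and 0.633). Of 3 members of the actin cytoskeleton list, none passed under DMSO, and Fam110c passed under FICZ, where it was lower (log2 difference -0.38, adjusted p = 0.00952). The call of Fam110c was lost without AHR KO FICZ replicate 3 (adjusted p = 0.0962).

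**Figure D5:**
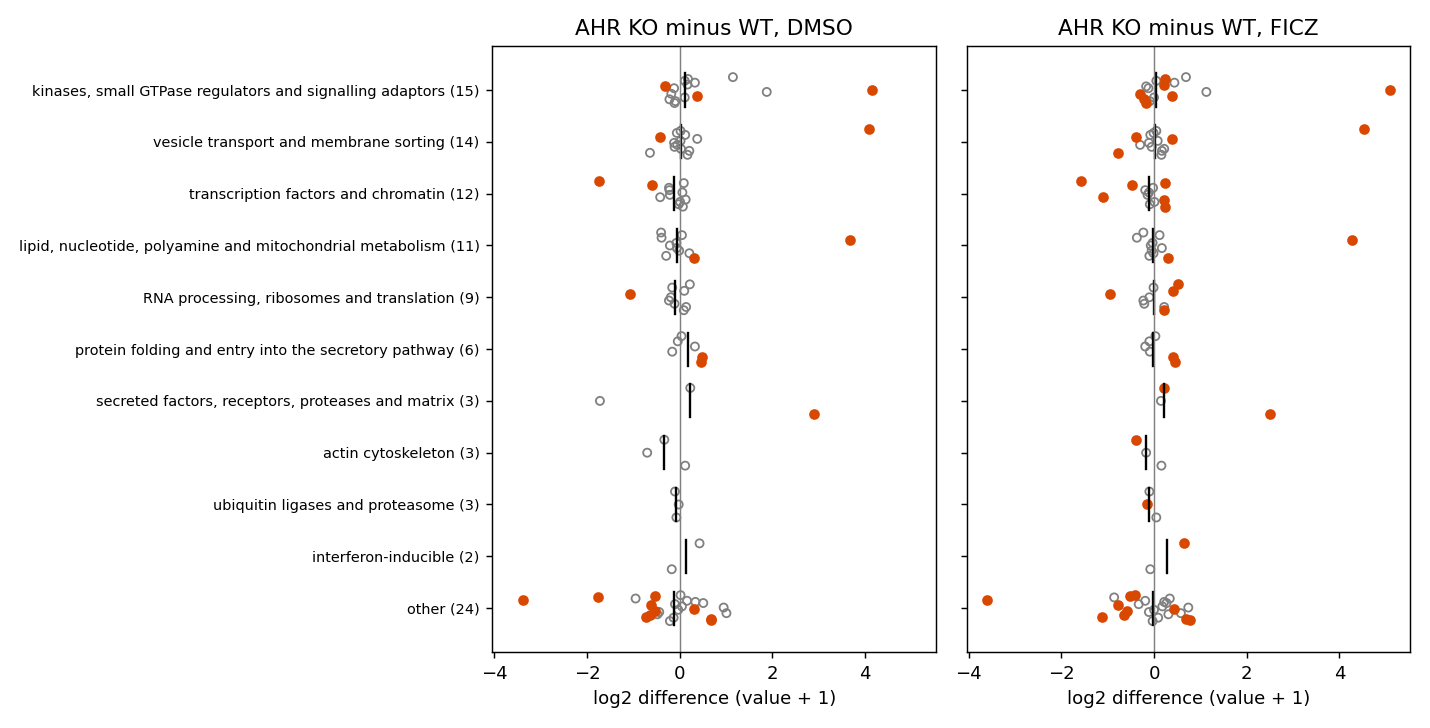
Log2 difference, AHR KO minus WT (horizontal axes, value + 1), of the members by function group, under DMSO (left) and FICZ (right), with the number of members in parentheses. Points are genes, filled where called, and short bars are group medians. The medians lie between -0.33 and 0.28, and Prkar2b, Atp6v1c2, Mboat2 and Lamb1 stand apart at 2.51 or more, each in a different group.

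The third question was whether the ligand changed these genes. In WT organoids 34 members passed between FICZ and DMSO (33.3%), 4 higher and 30 lower, beside 30.8% of all genes. In AHR KO organoids 17 passed (16.7%), 2 higher and 15 lower, beside 19.7% of all genes. Of the members 29.4% were lower and 3.92% higher in WT, beside 15.7% and 15.1% of all genes, and 14.7% and 1.96% in AHR KO, beside 9.48% and 10.2%, and no test of these shares was made. After removal of a trend on GC content and transcript length in each library, 13 members passed in WT (18.2% of all genes) and 3 in AHR KO (5.42% of all genes). In that fit 10.8% of the members were lower and 1.96% higher in WT, beside 10.1% and 8.08% of all genes, and the 3 in AHR KO were lower (2.94%, beside 3.52%). In 13 members (12.7%) the change was called in both genotypes, 12 lower and 1 higher, beside 15.2% of all genes called in both in 1 direction. When each library was left out in turn, 10 of the 34 calls in WT and 3 of the 17 in AHR KO held every time, the 3 being Ifrd1, Rock2 and Srp54a. Without WT DMSO replicate 2 or 3 the WT count was 13 (beside 15.6 and 17.8% of all genes), and without WT FICZ replicate 1 or 3 it was 22 or 20 (beside 24.3 and 23%). The AHR KO count was 11, 11, 3, 7 and 6 without WT DMSO replicates 2 and 3, AHR KO DMSO replicates 1 and 3 and AHR KO FICZ replicate 3, when 16.9, 16.9, 3.30, 9.90 and 9.47% of all genes passed.

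Ifrd1, a transcriptional coregulator 4.70 Mb after Ahr, fell with FICZ in both genotypes. It was at 3093.0 and 3408.1 in WT DMSO and 2188.0, 1996.9 and 2182.1 in WT FICZ (log2 change -0.61, adjusted p = 2.27e-04). In AHR KO it went from 3502.9 and 3612.4 to 2490.8 and 2419.9 (log2 change -0.53, adjusted p = 0.00190). Srp54a changed by -0.54 in WT (adjusted p = 3.39e-04) and -0.60 in AHR KO (adjusted p = 0.00143). Summed with its copy Srp54c, an alternative chosen after seeing the data, the changes were -0.27 (adjusted p = 0.00288) and -0.31 (adjusted p = 0.00491). Rock2, a kinase that drives actomyosin contraction, was at 12413.3 and 12111.9 in WT DMSO and 9114.1, 9370.0 and 9313.9 in WT FICZ, with changes of -0.40 in WT (adjusted p = 4.32e-04) and -0.35 in AHR KO (adjusted p = 0.00317), the latter -0.19 (adjusted p = 0.0432) with the trend on GC content and length removed. Nfkbia, the inhibitor of NF-kappaB, was the member called higher in both genotypes. It rose from 3275.6 and 3280.2 to 4057.4, 3992.9 and 3932.2 in WT (log2 change 0.28, adjusted p = 0.00134) and from 3017.3 and 3069.2 to 3583.4 and 3521.9 in AHR KO (0.22, adjusted p = 0.0121). The AHR KO call of Nfkbia was lost without AHR KO DMSO replicate 1 or 3 (adjusted p up to 0.0998) and after the trend on GC content was removed (log2 change 0.15, adjusted p = 0.102).

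Prkar2b and Mboat2 passed as lower with FICZ in WT (log2 change -1.12, adjusted p = 0.0475, and -0.63, adjusted p = 0.0495), and Atp6v1c2 did not (-0.56, adjusted p = 0.273). These calls were lost when single libraries were left out. They were also lost after removal of the GC trend, where the log2 changes were -0.97 and -0.51 (limma adjusted p = 0.105 and 0.127). The libraries whose removal ended the call of Mboat2 were WT DMSO replicate 2, both AHR KO DMSO libraries, and WT FICZ replicates 1 and 3, and for Prkar2b they were all but WT FICZ replicate 1. In AHR KO both had changes near 0 (-0.18 and -0.03, adjusted p = 0.801 and 0.945). The difference between the genotypes in the FICZ change was tested with an interaction term, and 0 members passed (limma, smallest adjusted p = 0.374), beside 0.447% of all genes. At an unadjusted p under 0.05 there were 5 members (4.90%), against 952 of all genes (7.47%).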

How the data were processed

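RNA-seq values came from 9 libraries in 4 groups. What the authors deposited holds normalised, not whole, values per gene and library, used here as a signal. Its name points to RSEM, and per the labels' processing notes RSEM 1.2.31, STAR 2.5.2a, DESeq2 1.16.1 and GRCm38 were used, while the methods name other counting, so which program made the table and whether strand was used is not given in the sources used here. The scaling and the precision from depth are thus not known per gene. No count model was applied. Identifiers were matched to GENCODE M21 (48435, 99.3%).

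On log2(value + 1), limma 3.58.1 was fitted to the 12741 genes whose mean reached 10 (R 4.3.3, trend, 4 groups, all 9 libraries, 5 contrasts, two-sided, Benjamini-Hochberg over all genes), with a call at an adjusted p under 0.05. Figures were drawn with matplotlib 3.10.9. The script was tested on simulated data. P-values measure the spread between these libraries. A fit with the replicate number as a block was an alternative. Genes named were up to 10 called members with the highest and lowest differences per genotype comparison and 5 per FICZ comparison (mean of 50 or more), the 5 nearest on each side of Ahr, those at the limits of the rule, and up to 3 of the most abundant of each function list. Others were named after their values were seen (1700030C10Rik, Gm10479 and Etv1). The members, the lists and the tests were chosen with earlier results of these data known. Shared sequence was counted as 50-base stretches of transcripts in common with other genes. Alternatives were pseudocounts, filters, scalings, other fits, a window of 10 Mb, gene edges for distance, removal of the GC trend, and leaving out each library.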

Additional observations from a re-analysis of the deposited data

How the results depend on the processing

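The counts of called members between AHR KO and WT were 12 to 28 under DMSO and 21 to 43 under FICZ when libraries were left out in turn, while 3.05 to 11.5% and 10.3 to 24.2% of all genes were called. By distance these ranges were 1 to 8 and 4 to 12 within 5 Mb, 1 to 2 and 2 to 3 at 5 to 10 Mb, and 10 to 19 and 15 to 28 at 10 to 20 Mb. The counts between FICZ and DMSO were 13 to 43 in WT and 3 to 24 in AHR KO, beside 15.6 to 32.4% and 3.30 to 23.2% of all genes. A window of 10 Mb on each side held 44 members, with 7 called under DMSO (15.9%) and 14 under FICZ (31.8%). Beside these stand 9.05% and 20% of all genes. A fit to the groups compared alone called 8 members within 5 Mb under DMSO, when 12.7% of all genes were called. The 22 members that share 10% or more of their 50-base stretches with other genes were left out in an alternative chosen after seeing the data. Of the other 80 members, 14 were called under DMSO, beside 9.05% of all genes. Without the filter on low values 8 members were called between FICZ and DMSO in AHR KO (beside 7.70% of all genes), and with the GC and length trend removed 13 in WT and 3 in AHR KO (18.2% and 5.42%). Summed with its copies (also chosen after seeing the data), Rps7 under FICZ reversed to 0.03. In the alternatives run that give a count for the interaction, 0 members were called. Causes of these shifts were not tested, except that a smaller window and leaving out those 22 members hold fewer members.

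With the replicate number as a replicate block, 19 members were called under DMSO (3 of them within 5 Mb) and 36 under FICZ, with 28 and 15 for FICZ against DMSO in WT and AHR KO, beside 8.26, 19.3, 26.8 and 17.6% of all genes. Without the block the genotype counts were 23 (5 of them within 5 Mb) and 40. Which genotype calls the block changed is not listed here. The deviations of DMSO and FICZ libraries of 1 genotype and number correlated at 0.03 to 0.05, and those of other pairs across groups at -0.08 to 0.08. In groups of 2 libraries the deviations mirror each other, so these values cannot decide whether libraries of 1 number share an animal or culture. In the FICZ comparisons the block ended none of the calls of Prkar2b and Mboat2 in WT, of Rock2 in AHR KO, and of Ifrd1, Nfkbia and Srp54a in both. Depth per gene is not known for these normalised values, and no limit from counting could be given for members near the level limit.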
